A study of Oryctolagus cuniculus with 4 samples.

Results

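ATP5PO and SDHD encode parts of the machinery of mitochondrial respiration and were followed here across rabbit ligamentum flavum under different mechanical conditions. Their members on the array are all probes whose systematic name is a RefSeq transcript of either gene, NM_001171421 for ATP5PO with 5 probes and XM_002708436 for SDHD with 2 probes. These are 2 of the 1489 genes that could be named on the array, and 2 of the 6 named genes of respiratory complexes I to V. They were taken up because earlier results of the same arrays had shown both lower by 2-fold or more at the mechanically stressed level, so their ratios are given as a description. All samples came from the ligamentum flavum of male rabbits, a ligament between neighbouring vertebral arches, taken at an age of 34 weeks and 16 weeks after surgery, per the labels. The surgery, described once for all samples and done at 18 weeks of age, removed muscle over L3/4 and fused L2/3 and L4/5 posterolaterally with instrumentation. At L3/4 there was a sample under intervertebral stress concentration, called the ISC level, and a sample named as the control for that level. For the instrumented levels, L2/3 together with L4/5, there was likewise a fused sample and a control sample, which makes 4 groups. Whether controls were operated on, and whether animals or levels were pooled in a sample, is not given in the sources used here. A single Cy3 array by Agilent stands for each group, so no ratio below has a biological error or a test.

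ATP synthase, or complex V, uses the proton gradient across the inner mitochondrial membrane to make ATP. ATP5PO encodes its oligomycin sensitivity-conferring protein, a subunit of the stalk that joins the catalytic head to the membrane part. SDHD encodes a small membrane anchor of succinate dehydrogenase, or complex II, which oxidises succinate in the citric acid cycle and passes the electrons to ubiquinone. Both genes are nuclear, and their products are imported into mitochondria. Ligament is a tissue of few cells and much matrix, whereas skeletal muscle is rich in mitochondria. In such bulk samples, fewer cells of a type and less RNA per cell cannot be told apart.

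The 4 arrays differed in overall brightness. The 75th percentile of the processed signal over non-control probes ran from 53.4 on the array of the L3/4 control to 93.8 on that of the ISC level. The L2/3 and L4/5 control had 72.8, and the fused levels had 85.4. A scaled level below is log2 of the signal minus log2 of that percentile, and a ratio is the difference of 2 scaled levels. Between 59.6% and 67.9% of the 43603 probes were well above background. Of 5 named tendon and ligament genes, COL1A2, LUM, DCN and BGN were well above background on all 4 arrays, and TNMD, a marker of tendon and ligament cells, on all but the fused levels.

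ATP5PO was well above background in all 20 measurements, with the median pixel signal of its spots 7.84 to 16.5 times the local background. The brightest of its probes, which stands for the gene below, had a processed signal of 394 in the L3/4 control, 376 at the fused levels, 314 in the L2/3 and L4/5 control and 311 at the ISC level. The error that Feature Extraction assigned to each ATP5PO signal was about 10% of it, which covers the reading of a spot and not the spread between animals. On the deposited scale, the L3/4 control and the fused levels were thus near each other, and the ISC level and the L2/3 and L4/5 control near each other below them. After scaling, the same probe stood at 2.88 in the L3/4 control, 2.14 at the fused levels, 2.11 in the L2/3 and L4/5 control and 1.73 at the ISC level. Scaling set the L3/4 control, the dimmest array, apart from the other 3.

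All 5 ATP5PO probes had their highest scaled level in the L3/4 control and their lowest at the ISC level. Their scaled levels ranged from 2.54 to 2.88 in the L3/4 control, from 1.83 to 2.11 in the L2/3 and L4/5 control, from 1.87 to 2.14 at the fused levels and from 1.30 to 1.73 at the ISC level. These ranges are over probes of 1 transcript on 1 array each, and are no spread between samples. Probe by probe, the fused levels differed from the control of the same levels by −0.11 to 0.23. For 4 of 5 probes that difference was less than the signal error. In the signals as deposited, the ISC level was again lowest for 5 of 5 probes, but the highest array was the L3/4 control for 3 probes and the fused levels for 2.

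SDHD was well above background in all 8 measurements. Its brighter probe, A_04_P031947, had a processed signal of 222 in the L3/4 control, 202 at the fused levels, 186 at the ISC level and 152 in the L2/3 and L4/5 control. Its other probe, A_04_P031948, had 57.8, 60.2, 56.5 and 40.4 in the same order. On the deposited scale the L2/3 and L4/5 control was the lowest array for both probes, and the other arrays lay closer together. The scaled levels of the brighter probe were 2.06 in the L3/4 control, 1.24 at the fused levels, 1.06 in the L2/3 and L4/5 control and 0.99 at the ISC level. Those of the dimmer probe were 0.11, −0.50, −0.85 and −0.73 in that order. Both probes were highest in the L3/4 control after scaling, and their 2 lowest arrays, the ISC level and the L2/3 and L4/5 control, differed by less than the signal error and changed places between the probes.

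**Figure D1:**
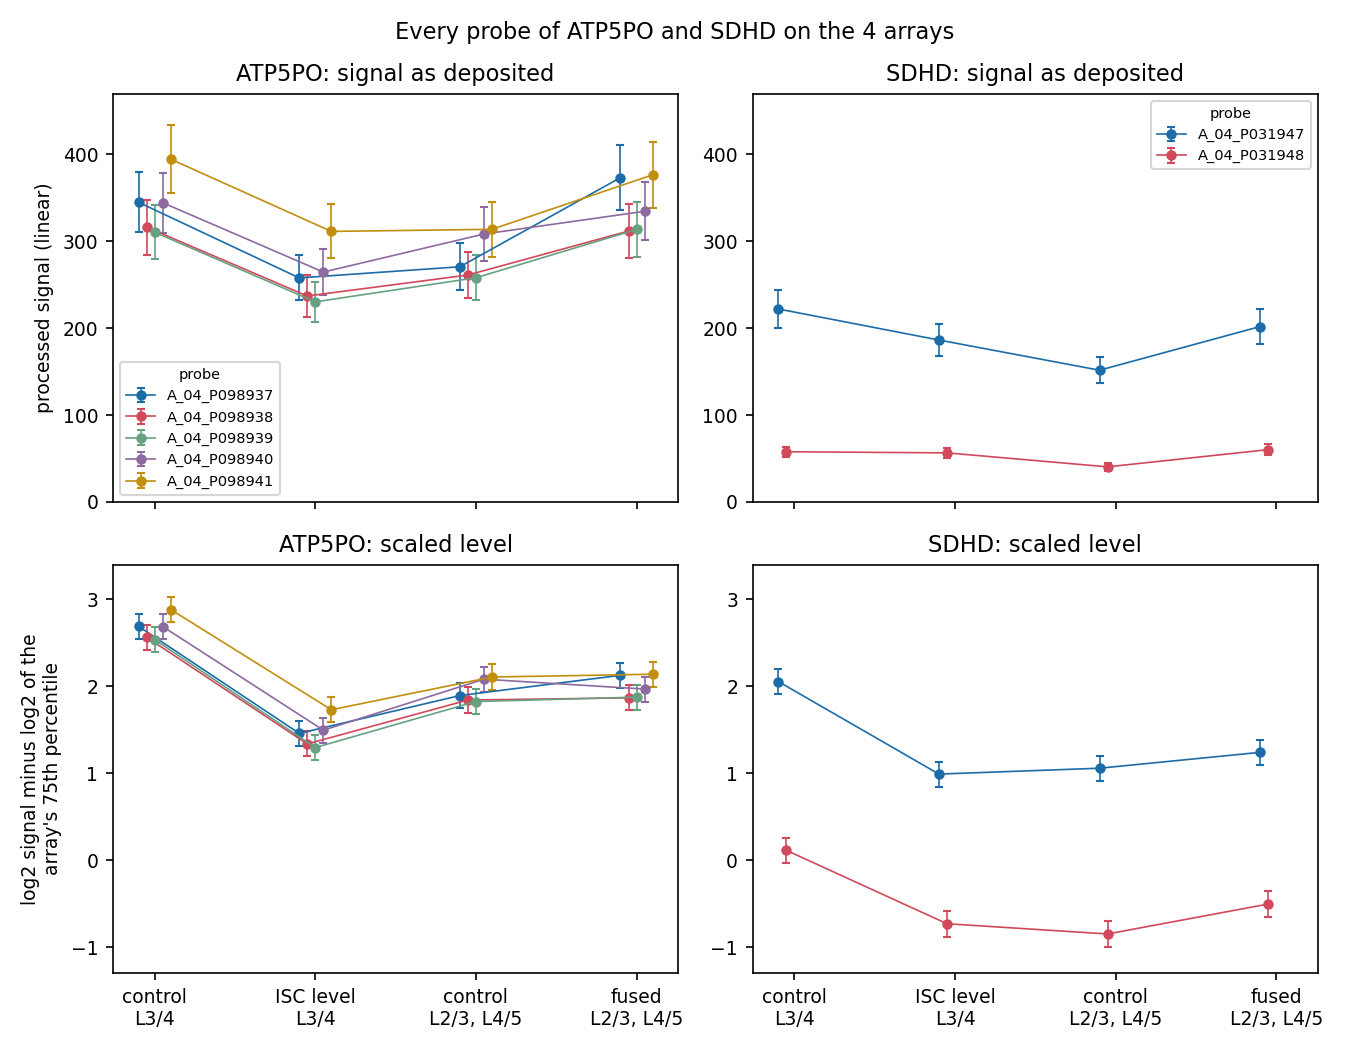
Each probe of ATP5PO and SDHD on the 4 arrays, as processed signal on a linear axis (top) and as log2 signal minus log2 of the array's 75th percentile (bottom). Lines join values of 1 probe to help the eye across separate samples, and error bars are Feature Extraction's signal error. After scaling, the L3/4 control is the highest array for 7 of 7 probes, against 4 of 7 in the signals as deposited.

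Stress was concentrated at L3/4 by the surgery, and the question there was how the ligament differed from its control. ATP5PO was lower at the ISC level, at −1.15 on the log2 scale or 2.22-fold, and its 5 probes lay between −1.24 and −1.15. All 5 probes were past 2-fold, and their spread of 0.09 was smaller than the signal error of such a ratio, 0.20. SDHD was lower by a ratio of −1.06, or 2.09-fold, on its brighter probe. Its dimmer probe was at −0.84, so 1 of 2 probes was past 2-fold. Of 13729 features (genes or transcripts) measured on both arrays, 10.5% were lower by 2-fold or more and 9.11% higher by as much. The members were chosen from this contrast, and nothing is read from their place in it.

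The size of these ratios came in large part from the scaling. In the signals as deposited, ATP5PO was 1.27-fold lower at the ISC level, with a ratio of −0.34 and probes from −0.43 to −0.34. SDHD was 1.19-fold lower, at −0.25, and its dimmer probe was at −0.03. Scaling moved each feature by −0.81 in this comparison, because the L3/4 control was the dimmer array. Without it the median of all measured features was 0.65, and after it −0.16. Set against that median, ATP5PO was lower by a ratio of −0.99 and SDHD by −0.90, differences that no factor per array can change. These are 1.98-fold and 1.87-fold. Over the 7 settings for background and scaling, that difference from the median ranged from −0.99 to −0.56 for ATP5PO and from −0.90 to −0.40 for SDHD.

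Fusion holds vertebrae still, and the question at L2/3 and L4/5 was how the ligament of the fused segments differed from its control. ATP5PO was at 0.03, with probes from −0.11 to 0.23, and the ratio was smaller than its signal error of 0.20. SDHD was at 0.18, again within a signal error of 0.20, and its dimmer probe was at 0.34, outside its own error of 0.21. None of the 7 probes reached 2-fold, beside 7.84% of 13717 features that were higher by 2-fold or more and 9.12% that were lower by as much. In the signals as deposited ATP5PO was at 0.26 and SDHD at 0.41, both higher at the fused levels, and the median of all features was 0.10. The interval of 1 signal error around the scaled ratio of ATP5PO takes in 0, which does not show that its level was the same.

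The controls themselves differed in these genes. ATP5PO was higher in the L3/4 control than in the L2/3 and L4/5 control by 0.78, with probes from 0.61 to 0.80. SDHD was higher by 0.997 on the brighter and 0.96 on the dimmer probe, or 1.996-fold and 1.95-fold. Both scaled ratios were several times the signal error, which does not cover the scaling between arrays. Of 13137 features 8.43% were higher in that control by 2-fold or more and 9.14% lower. The choice of ATP5PO and SDHD by low ratios against the L3/4 control favours genes high on that array, so these ratios are a description. For SDHD the control arrays differed by 0.997 and the ISC level from its matched control by −1.06 after scaling, against 0.55 and −0.25 in the signals as deposited. For ATP5PO these were 0.78 and −1.15, against 0.33 and −0.34.

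Set against the L2/3 and L4/5 control instead, the ISC level was at −0.38 for ATP5PO, with probes from −0.59 to −0.38, and at −0.068 for SDHD, with its dimmer probe at 0.12. In the signals as deposited these ratios were −0.01 for ATP5PO and 0.30 for SDHD, so the direction of SDHD turned. Both genes were under 2-fold there, beside 5.02% of 14114 features lower by 2-fold or more and 3.56% higher. The fused levels were at −0.74 for ATP5PO and −0.81 for SDHD against the L3/4 control, and at −0.07 and −0.14 in the signals as deposited. There 13.0% of 13352 features were lower by 2-fold or more and 11.2% higher. These comparisons share the L3/4 control or the L2/3 and L4/5 control with those above and are no independent support for them. The ISC level was below the fused levels by −0.41 for ATP5PO, with all 5 probes between −0.67 and −0.41. For SDHD that ratio was −0.25, with probes at −0.25 and −0.23. Of 14564 features 7.75% were lower at the ISC level than at the fused levels by 2-fold or more and 6.99% higher. In the signals as deposited these ratios were −0.27 for ATP5PO and −0.12 for SDHD. The choice of the members by low ratios at the ISC level favours genes low on that array, so this direction is a description too.

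**Figure D2:**
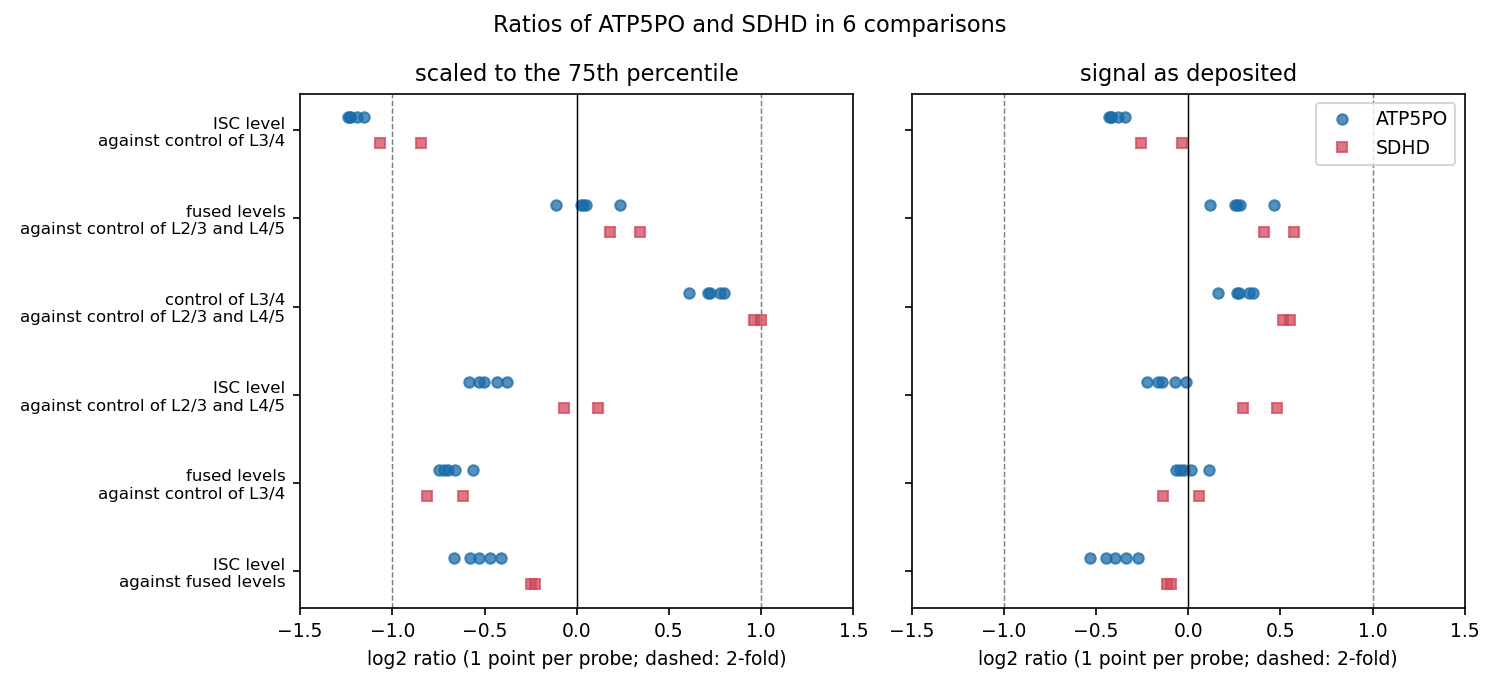
Log2 ratios of the 5 ATP5PO probes (circles) and the 2 SDHD probes (squares) in 6 comparisons, scaled to each array's 75th percentile (left) and from the signals as deposited (right), with dashed lines at 2-fold. The points past 2-fold are all on the left and all from the ISC level against its control, 5 of 5 probes of ATP5PO and 1 of 2 of SDHD.

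Among all features measured on both arrays, 7.30% were at or below the ratio of ATP5PO at the ISC level, and 9.03% at or below that of SDHD. At the fused levels these shares were 60.2% and 68.8%, near the middle of the distribution. In the L3/4 control against the other control they were 86.2% and 91.5%, towards the upper end. For the fused levels against the L3/4 control they were 21.2% and 18.7%. The place at the ISC level was set by the choice of the genes, and the comparisons that use the L3/4 control share that array, so these shares are a description.

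**Figure D3:**
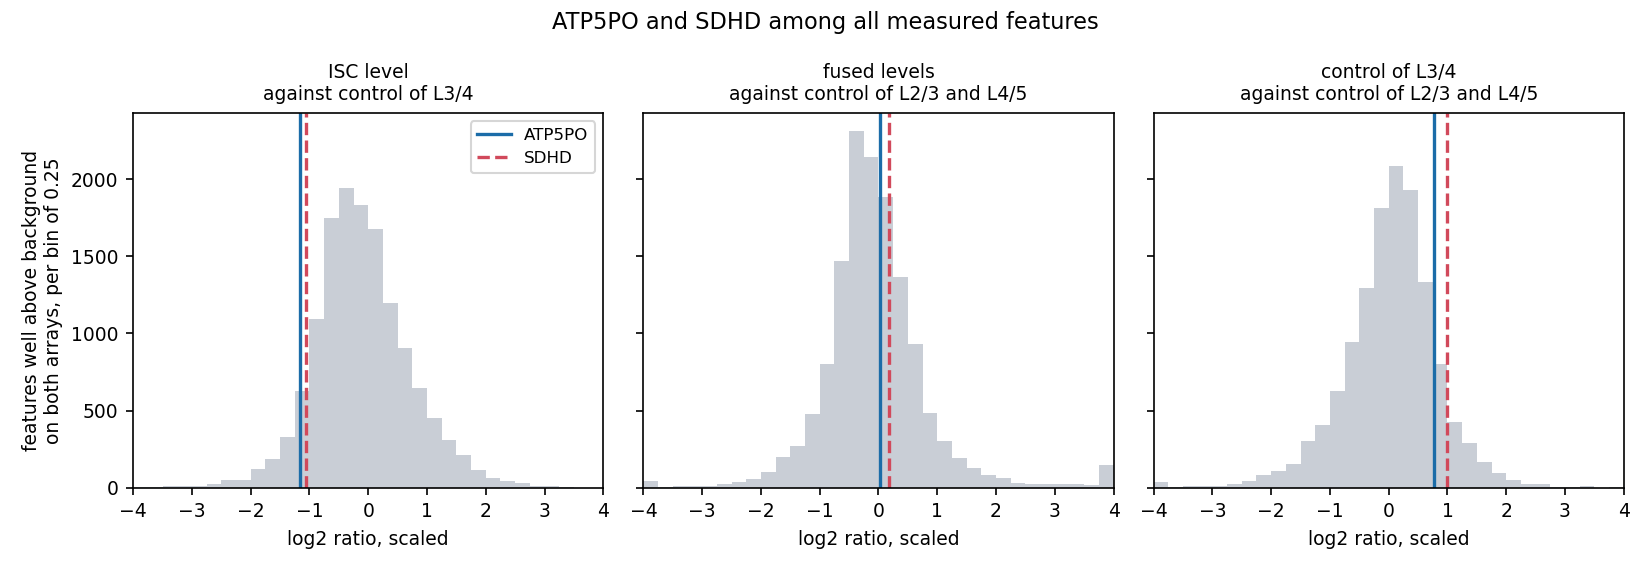
Number of measured features per bin of 0.25 of scaled log2 ratio, in 3 comparisons; the outermost bins also hold all features beyond 4 in size. The solid line marks ATP5PO, at −1.15, 0.03 and 0.78 from left to right, and the dashed line SDHD, at −1.06, 0.18 and 0.997.

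Of 102 symbols listed for respiratory complexes I to V, 6 could be named on the array, and all 6 were well above background on the 4 arrays. Against the L3/4 control, 2 of the 6 were lower by 2-fold or more at the ISC level and 0 higher by as much. Of all features, 10.5% were lower and 9.11% higher by as much. Their median was −0.46, beside −0.16 over all features. The 2 are ATP5PO and SDHD, for which the list had been taken up. The other 4 were all under 2-fold. NDUFA1, an accessory subunit of complex I, was at −0.37, and NDUFA12, another accessory subunit of that complex, was at −0.03. UQCRQ, a subunit of complex III, was at −0.56 on its brightest probe, but its other probes were at 0.28 and 0.55, so its direction depends on the probe. COX6A1, a subunit of complex IV, was at −0.34 on 1 probe.

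The direction of the other respiration genes at the ISC level also depended on the scaling. Over the 7 settings for background and scaling, ATP5PO and SDHD were lower at the ISC level in 7 of 7. UQCRQ and NDUFA1 were lower in 6 and 5 settings, COX6A1 in 5 and NDUFA12 in 2, and without scaling between arrays NDUFA1 was at 0.45, NDUFA12 at 0.78, UQCRQ at 0.25 and COX6A1 at 0.47. Against the median ratio of these 4 genes, −0.35, ATP5PO was lower by a ratio of −0.80 and SDHD by −0.71. Over the 7 settings that difference ranged from −0.96 to −0.77 for ATP5PO and from −0.95 to −0.60 for SDHD. ATP5PO and SDHD were chosen for low ratios in this contrast and the other 4 genes were not, so the choice fixes the direction of this difference.

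At the fused levels 0 of the 6 genes were 2-fold apart from the L2/3 and L4/5 control, beside 9.12% of all features lower and 7.84% higher. The median of the 6 was 0.03 beside −0.13 over all features. COX6A1 was at 0.34, NDUFA1 at 0.02, NDUFA12 at −0.10 and UQCRQ at −0.24. Between the control arrays, 0 of 6 were at 2-fold, beside 9.14% of all features lower and 8.43% higher by as much. The median of the 6 was 0.15 beside 0.08 over all features. ATP5PO and SDHD had the highest ratios of the 6 there. NDUFA1 was at 0.32, COX6A1 at −0.02, UQCRQ at −0.08 and NDUFA12 at −0.17. The other UQCRQ probes were at −1.33 and −0.91, so its size depends on the probe. ATP5PO and SDHD were chosen for low ratios against the L3/4 control, which favours genes high on that array. Their place among the 6 here is therefore only a description.

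**Figure D4:**
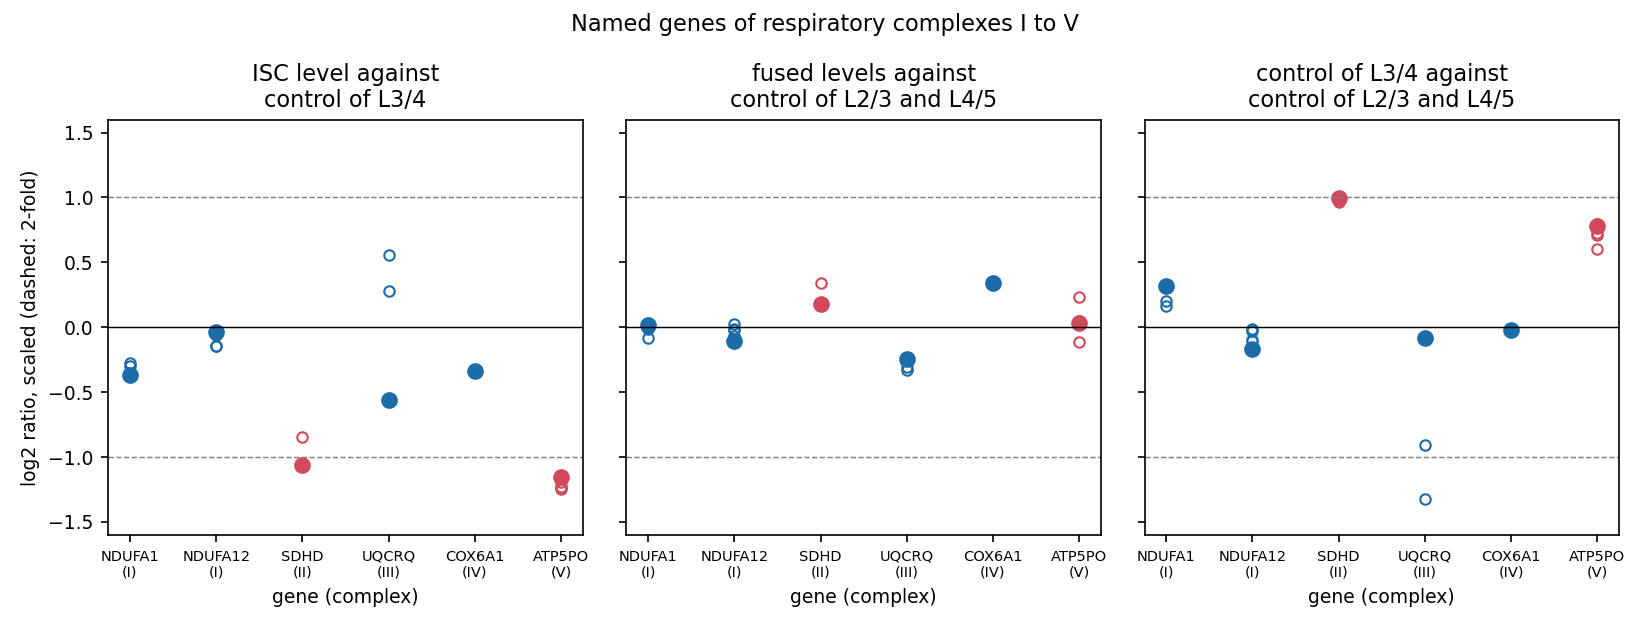
Scaled log2 ratios of the 6 named genes of respiratory complexes I to V in 3 comparisons, with the probe that represents each gene filled and its other probes open, ATP5PO and SDHD in red, and dashed lines at 2-fold. At the ISC level ATP5PO and SDHD lie at −1.15 and −1.06 while the filled points of the others lie between −0.56 and −0.03.

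Genes of the steps before and around the respiratory chain were few on the array. Of the pyruvate dehydrogenase and citric acid cycle list, 3 of 20 symbols could be named and 2 were measured at the ISC level. Of these 0 were at 2-fold, beside 10.5% of all features lower and 9.11% higher by as much. PDHB, a subunit of pyruvate dehydrogenase, was at −0.26, and at 0.55 without scaling. IDH3G, a subunit of the isocitrate dehydrogenase of that cycle, which also feeds electrons to respiration, was at 0.04, with its other probe at −1.07. At the fused levels PDHB was at −0.08, turning to 0.15 without scaling, and IDH3G at −0.34. Of 17 symbols for mitochondrial fatty acid oxidation none could be named. HSPE1, a mitochondrial chaperonin, was at −0.35 at the ISC level, with its other probe at 0.34, and at 0.40 at the fused levels. These turned to 0.46 without scaling and to −0.06 with normexp background correction, in that order, on the brighter probe.

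Among mitochondrial membrane carriers and channels, the channels and the 1 carrier measured had ratios of opposite sign at the ISC level after scaling. Of 17 symbols 7 could be named, and of the 4 measured at the ISC level 0 were 2-fold apart from the L3/4 control. Their median was 0.35, and of all features 10.5% were lower and 9.11% higher by 2-fold or more. The channels of the outer membrane were higher there, VDAC1 at 0.89, VDAC2 at 0.42 and VDAC3 at 0.27, in each of the 7 settings. SLC25A4, the carrier that exchanges ADP for ATP, was at −0.55, and at 0.26 without scaling. Between the control arrays the channels were lower in the L3/4 control, VDAC2 at −1.02, VDAC3 at −0.61 and VDAC1 at −0.46. ATP5PO and SDHD were higher there, which their choice favours. VDAC2 was the 1 of 4 measured members at 2-fold, with its other probe at −0.88, beside 9.14% of all features lower and 8.43% higher by as much. SLC25A4 was at 0.23 between the controls, but below 0 in 4 of 7 settings.

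Muscle and uncoupling members of the same list followed other arrays. CKMT2, the mitochondrial creatine kinase of striated muscle, was at −4.42 at the fused levels against their control. It was the 1 of 5 measured members at 2-fold there, beside 9.12% of all features lower and 7.84% higher by as much. In the L3/4 control it did not stand well above background, and it was at least 24.2-fold higher in the L2/3 and L4/5 control. UCP3, an uncoupling protein of muscle, stood well above background only at the fused levels and was at least 2.89-fold higher there than in the control of those levels. UCP1, the uncoupling protein of brown fat, likewise stood well above background only there and was at least 1.24-fold higher. Each bound was taken against the dim array's own faintest probe well above background, or against the gene's signal there if that was higher. The bounds hold only for the reported scaling and the probe that stands for each gene. Over the 7 settings CKMT2 came as near to 0 as −1.80 in the L3/4 control against the other control. At the fused levels against their control, CKMT2 came as near as −2.01, UCP3 as 0.26 and UCP1 as 0.10. The UCP3 probes ran from 0.12 to 1.64 in that comparison.

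Genes of oxygen sensing gave 4 named members of 18 symbols, all measured. HIF1A, the subunit of the hypoxia-inducible factor that is stabilised when oxygen is low, was at 0.93 at the ISC level and at −0.85 at the fused levels, each in 7 of 7 settings on that side of 0. Its partner ARNT was at 0.52 and 0.34. VHL, which marks HIF1A for breakdown, was at −0.16 and −1.31, and the glucose transporter gene SLC2A1 at −0.37 and −1.31. At the ISC level VHL and SLC2A1 turned to 0.65 and 0.44 without scaling. Against the L3/4 control 0 of the 4 were at 2-fold, beside 10.5% of all features lower and 9.11% higher by as much. At the fused levels 2 of 4 were lower by 2-fold or more, beside 9.12% of all features. Over the 7 settings the fused ratio of VHL came as near to 0 as −0.38 and that of SLC2A1 as −0.55, so both calls depended on the setting.

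Markers of other cell types also differed between the arrays on which the members differed. Summed signals are given in units of each array's 75th percentile. The 6 named smooth muscle and pericyte genes, all well above background on every array, summed to 73.3 in the L3/4 control and 31.0 at the ISC level. ACTA2, MYH11 and TPM2 were lower there by 2-fold or more, beside 10.5% of all features. Of the other 3, CALD1 was at −0.69, TPM1 at −0.74 and DES at 0.28, with the other DES probe at −0.60. In the signals as deposited ACTA2, MYH11 and TPM2 were at −0.23, −1.38 and −0.34, while CALD1, TPM1 and DES were at 0.12, 0.07 and 1.09. The 2 endothelial genes KDR and SOX17 summed to 0.81 and 0.20 on those arrays, and the 2 haemoglobin genes to 779 and 434. At the ISC level KDR was at −1.32 and SOX17 at −2.57, both lower by 2-fold or more, beside 10.5% of all features. The probes of KDR ran from −1.88 to 1.16. HBA was at −0.89 and HBB2 at −0.80, both under 2-fold. In the signals as deposited KDR and SOX17 were at −0.51 and −1.76, and HBA and HBB2 at −0.076 and 0.0083. The 5 tendon and ligament genes had a scaled median of −0.09 at the ISC level. BGN was higher by 2-fold or more, beside 9.11% of all features, but its other probe was at 0.47. The part of these cell types in the ratios of ATP5PO and SDHD was not tested.

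Skeletal muscle markers also differed between arrays. The 21 named muscle genes summed to 974 in the L2/3 and L4/5 control, with 20 of 21 well above background, and to 42.8, 31.5 and 18.4 in the L3/4 control, at the ISC level and at the fused levels. All 17 genes measured at the fused levels were lower by 2-fold or more than in the control of those levels, beside 9.12% of all features. Their median was −5.35, while ATP5PO was at 0.03 and SDHD at 0.18. The part of muscle content in the levels of the members was not tested. Neutrophil and marrow genes, 6 named of 11, summed to 316 at the fused levels and to between 6.19 and 13.9 on the other arrays, and adipocyte genes, 4 of 11, to 19.9 against 4.97 to 7.83. CD14, the 1 macrophage marker named of 8, was at 0.71 at the ISC level and at 1.07 at the fused levels. The cartilage genes COL2A1 and CNMD had a median of −0.08 and −0.87 in the same order. The COL2A1 probes ran from −0.08 to 1.01 and from −4.62 to −0.73, so its size depends on the probe.

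The genes most like ATP5PO and SDHD were sought among 886 named genes well above background throughout, by the Euclidean distance between log2 profiles centred over the 4 arrays. ATP5PO had deviations of 0.67 in the L3/4 control, −0.48 at the ISC level, −0.11 in the L2/3 and L4/5 control and −0.08 at the fused levels. Nearest to it were SLC12A7 at a distance of 0.092, EEF1D at 0.093, MANBAL at 0.13, RPL10 at 0.14 and TMEM30B at 0.15. For SDHD, with deviations of 0.72, −0.35, −0.28 and −0.10 in the same order, they were TUBA1B at 0.12, TMEM30B at 0.13, YWHAB at 0.14, SLMAP at 0.15 and NPM1 at 0.17. The members were 0.23 apart, and each was the 11th nearest gene to the other. All of these genes were highest in the L3/4 control after scaling, which follows from a search for profiles like those of the members. With 4 points per gene such a likeness has little weight.

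Of the 3 protein-coding genes on each side of the members in a RefSeq annotation of the assembly mOryCun1.1, KCNE2, SLC5A3 and IL18 could be named on the array, and KCNE2 was not well above background on both arrays of a comparison. IL18, the cytokine gene next to SDHD on one side, was at −0.42 at the ISC level, 0.04 at the fused levels and 0.81 between the controls, each on the same side of 0 as SDHD, though it was at 0.39 at the ISC level without scaling. SLC5A3, next to ATP5PO and encoding a myo-inositol transporter, was at 0.59, 1.45 and −0.64, the opposite of ATP5PO at the ISC level and between the controls.

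**Figure D5:**
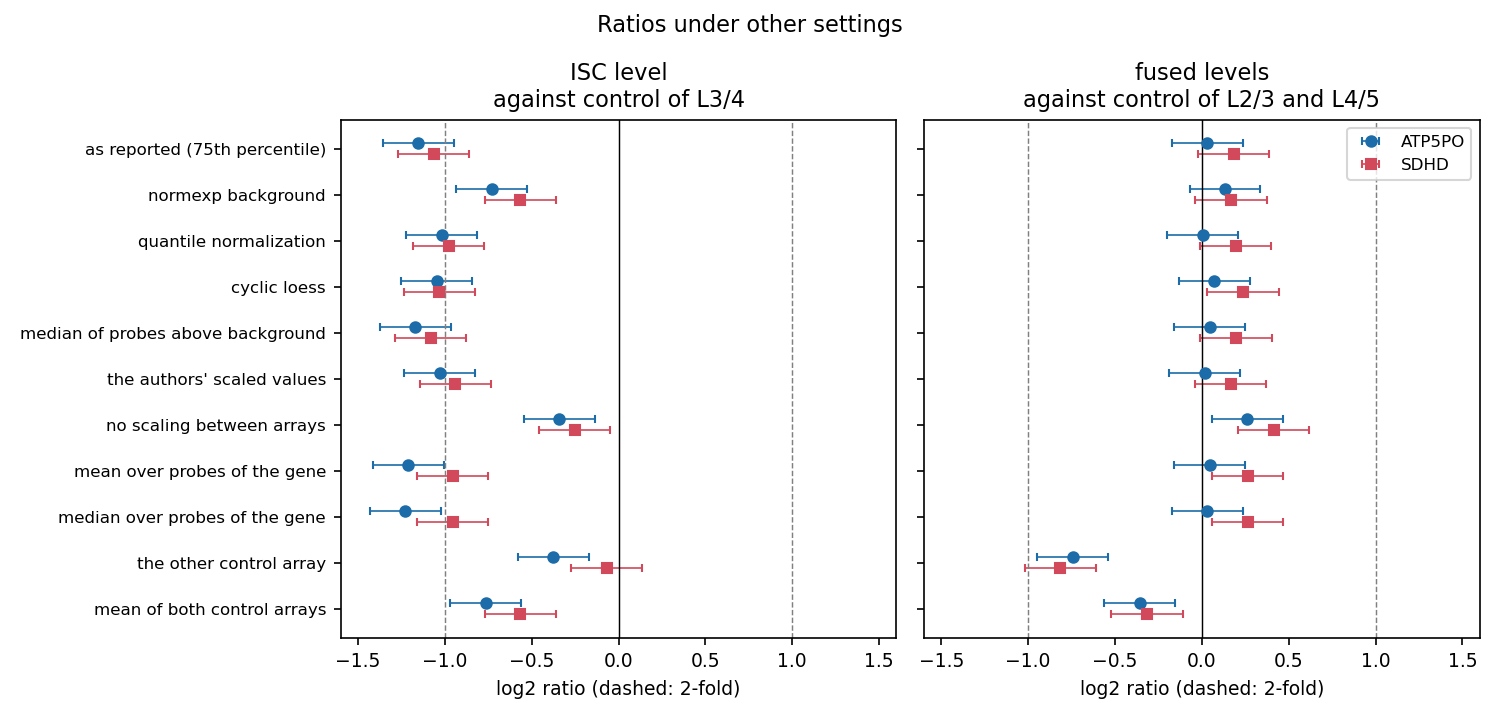
Log2 ratios of ATP5PO (circles) and SDHD (squares) at the ISC level (left) and at the fused levels (right) as reported and under 10 other settings; bars are the signal error of the reported ratio, and dashed lines mark 2-fold. ATP5PO at the ISC level lies between −1.23 and −0.34 over the other settings and SDHD between −1.08 and −0.07.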

How the data were processed

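RNA was labelled with Cy3, per the labels' protocols. The submitters' processing notes name Agilent Feature Extraction 12.0.3 as the software that read the spots. Its deposited signals are linear spot intensities, background-subtracted and detrended within each array, per the file headers. Marks per spot and an error per signal are also the program's. The authors' deposited value table equals these intensities times 1 factor per array, 23.3 to 37.5, and how the factors were chosen is not given in the sources used here.

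Here control spots and outlier spots (3 to 7 per array) were left out, spots of a probe averaged and log2 signals scaled to each array's 75th percentile. No spot was saturated. The number of arrays limits the precision. All 4 arrays lie on 1 slide. RefSeq accessions named 3792 of 43603 probes. A gene is represented by its probe with the highest mean. A comparison took in features well above background on its 2 arrays, with 2-fold as a fixed size. Tools were R 4.3.3, limma 3.58.1 and Python 3.11.15, tested on simulated data. Genes named are the members, all named genes of complexes I to V, up to 3 highest and lowest of other pathway lists, the leading markers and the 5 nearest genes of each member; IL18, SLC5A3 and other markers were named after their values were seen. Normexp (offset 50) used spot medians. Members and lists were chosen with earlier results of these data known. Each array's replicate spots, of 50 probes, had a median SD of 0.12 to 0.15 in log2 signal. The result of 1 further marker list is not reported here.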

Additional observations from a re-analysis of the deposited data

Results flagged for a closer look

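Of the 6 named genes of respiratory complexes I to V, 4 had a ratio below 0 at the ISC level and above 0 at the fused levels, each to its matched control. The difference between these ratios was −1.19 for ATP5PO, −1.25 for SDHD, −0.68 for COX6A1 and −0.39 for NDUFA1. The fused ratios of ATP5PO, at 0.03, and SDHD, at 0.18, lay within their signal error of 0.20, and that of NDUFA1, at 0.02, turned to −0.03 with quantile normalization. At the ISC level NDUFA1 and COX6A1 turned above 0 with normexp and without scaling. With 1 array in each group the difference was not tested. The 4 values come from the same 4 arrays and are not independent of each other. ATP5PO and SDHD were chosen for low ratios at the ISC level, which fixed their sign there and favours a negative difference. The share of all features with these signs is not given here.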

How the results depend on the processing

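At the ISC level both genes kept a ratio below 0 under all 10 alternatives, but 2-fold was reached in 6 of them for ATP5PO and in 2 for SDHD. The genes were chosen for low ratios in this contrast, which favours that sign, so its persistence is a description. The ratio of ATP5PO was −0.73 with normexp, −0.34 without scaling between arrays (an alternative added after seeing the data), −0.38 against the other control array and −0.76 against the mean of both controls. For SDHD these were −0.57, −0.25, −0.068 and −0.57, and its dimmer probe was at 0.12 against the other control array. SDHD was also just under 2-fold with quantile normalization at −0.98, the authors' scaled values at −0.94 and the mean over its probes at −0.95. At the fused levels ATP5PO was at 0.26 without scaling, −0.74 against the other control and −0.36 against the mean of both, and SDHD at 0.41, −0.81 and −0.32. No alternative took either gene to 2-fold there. Of the respiration genes, 2 were 2-fold apart at the ISC level, and this became 1 with quantile normalization, the authors' scaled values and the mean or median over probes, and 0 with normexp, without scaling, against the other control and against the mean of both. The list's median of −0.46 turned to 0.35 without scaling. At the fused levels the count stayed at 0 under 14 alternatives. Among all features called 2-fold apart at the ISC level, the share that was higher was 46.5%, and it was 66.3% with normexp, 58.9% with the authors' values and 94.5% without scaling. For the fused levels it was 46.2%, and 62.8% with normexp and 65.3% without scaling. No paired analysis was possible because each group holds 1 array. The dimmer SDHD probe, at 2.64 to 3.17 times its local background, is the least certain of the 7.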
